A study of Saccharomyces cerevisiae with 24 samples.

Results

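The mitochondrial DNA of budding yeast (Saccharomyces cerevisiae) carries genes for 8 proteins, and the RNA of these 8 genes was followed here in 24 RNA sequencing libraries. The genes were taken by name: COX1 (Q0045), ATP8 (Q0080), ATP6 (Q0085), COB (Q0105), OLI1 (Q0130), VAR1 (Q0140), COX2 (Q0250) and COX3 (Q0275). They are 8 of the 7218 features in the deposited table, and 7 of them had at least 1 count in some library.

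The study depleted Ycg1, a subunit of the chromosome-organising complex condensin, and sequenced RNA from cells held in G1 and then in mitosis (M). Both strains were mating type a cells of the W303-1A background. The control carried YCG1-3PK, an epitope-tagged YCG1. In the other strain, ycg1Degron1, the gene was placed under the methionine-repressible MET3 promoter, the tag was extended with 3miniAID, an auxin-inducible degron, and the plant F-box protein OsTIR1 was expressed from the ADH1 promoter. All groups, the control included, were grown at 25°C in minimal medium lacking methionine, given α-factor for 1.5 h to arrest them in G1, and shifted to rich medium with auxin (88 μg/ml). The G1 sample was collected after 2 h of auxin. The same cultures were released into nocodazole, a drug that depolymerises microtubules, and the M sample was taken 2 h later. One portion of each RNA sample was sequenced as total RNA, without depletion of rRNA, and another after selection for poly(A) tails. There were 6 libraries for each arrest and library type, 3 of each strain. The columns of the table name the strains only by a code, 14 or 18, which the sample labels do not explain. The codes were not matched to strains, and differences between them name no strain.

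Yeast mitochondria transcribe their DNA with a single-subunit RNA polymerase, Rpo41, and its partner Mtf1, and they keep their own ribosomes to translate the messages. The encoded proteins are membrane subunits of the respiratory chain and of ATP synthase, plus 1 protein of the mitochondrial ribosome, and every other subunit of these complexes is made from nuclear genes. In this yeast, mitochondrial messages end at a conserved AU-rich dodecamer and carry no poly(A) tail, unlike nuclear messages.

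All 8 genes lie on the same strand of the mitochondrial chromosome (MT), here in the R64 reference annotation of RefSeq. That chromosome has 85779 bases, of which 17.1% are G or C, whereas the median GC content of 6008 nuclear coding sequences was 39.8%. The ATP synthase genes are OLI1 at MT:46723-46953, ATP6 at MT:28487-29266 and ATP8 at MT:27666-27812, each a single exon. Of the cytochrome c oxidase genes, COX1 spans MT:13818-26701 in 8 coding exons, COX2 lies at MT:73758-74513 and COX3 at MT:79213-80022. COB, which encodes cytochrome b of complex III, spans MT:36540-43647 in 6 coding exons, and VAR1, which encodes the ribosomal protein, lies at MT:48901-50097. COX1 and COB share sequence with their own introns' reading frames: 972 of the 1605 exon bases of COX1 also belong to 5 annotated intron reading frames, and 756 of the 1158 exon bases of COB belong to 3. Reads from those bases were divided among the features by the authors' software, so the values of COX1 and COB are estimates of a shared signal. COX2 shares 19 bases with the reading frame Q0255.

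The genes differ widely in base composition, and the sequences that follow were chosen because they mark the ends of the range of levels described next. They run 5′ to 3′ on the coding strand, with every G and C in capitals. The coding sequence of OLI1, which had the highest level per length of the 8, is 33.3% G or C. That of ATP8, which had no count in any library, is 19.0% G or C. VAR1, with 1 to 7 counts in each total RNA library, is 10.4% G or C and holds a run of 127 bases without a G or C, the longest among the 8 genes. Its stretch of 231 bases (the length of OLI1) with the lowest GC content, at MT:49235-49465, has 3.03% G or C. The first exon of COX1, MT:13818-13986, is shared with intron reading frames and is 28.4% G or C.
OLI1 coding sequence, MT:46723-46953: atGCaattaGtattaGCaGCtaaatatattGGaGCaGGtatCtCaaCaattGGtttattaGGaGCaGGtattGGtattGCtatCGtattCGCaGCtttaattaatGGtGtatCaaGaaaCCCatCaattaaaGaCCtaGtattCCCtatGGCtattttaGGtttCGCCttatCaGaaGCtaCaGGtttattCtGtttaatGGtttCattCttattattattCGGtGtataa
ATP8 coding sequence, MT:27666-27812: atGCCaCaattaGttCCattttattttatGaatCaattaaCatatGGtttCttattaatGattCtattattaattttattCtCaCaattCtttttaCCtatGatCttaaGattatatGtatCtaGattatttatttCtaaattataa
VAR1 lowest-GC stretch, MT:49235-49465: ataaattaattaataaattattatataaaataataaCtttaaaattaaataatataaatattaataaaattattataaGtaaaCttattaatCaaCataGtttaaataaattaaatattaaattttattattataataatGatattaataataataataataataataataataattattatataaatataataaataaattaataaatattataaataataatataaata
COX1 exon 1, MT:13818-13986: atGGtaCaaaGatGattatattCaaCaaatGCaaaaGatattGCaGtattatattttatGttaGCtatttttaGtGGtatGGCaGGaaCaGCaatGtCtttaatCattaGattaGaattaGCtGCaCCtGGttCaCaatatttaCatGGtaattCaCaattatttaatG

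The 500 bases after the last coding base of each gene were searched for shared strings, since the dodecamer that ends these messages lies downstream of the coding sequence. The longest string common to at least 5 of the 8 genes was TAATAATATTCTT, of 13 bases, which includes that dodecamer. It was found after COX2 (its first base 62 bases on), COX1 (68 bases), ATP6 (86 bases), COB (97 bases) and COX3 (100 bases), and was not in this window after ATP8, OLI1 or VAR1. On that strand the chromosome holds 6 copies, with 2 on the other, and 3.43% of all windows of 500 bases on the same strand hold one. The string was picked because at least 5 of the 8 windows hold it, so the 3.43% is a description and no test. The limit of 5 genes was chosen with the position of the dodecamer known. The longest string common to all 8 genes had 10 bases and that common to at least 4 had 16, neither with a G or C. These matches describe the letters of the reference and are no measurement of RNA ends.

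Each library held 10282599 to 22171825 counts in the polyA set and 13932410 to 21650543 in the total set. Ribosomal RNA took 95.5 to 96.0% of the counts of total RNA libraries and 2.24 to 10.5% of those of polyA libraries, which left 564083 to 929948 other counts in total RNA libraries and 9644012 to 21666220 in polyA libraries. Levels are given as CPM, those other counts scaled to a library size of 1000000 and adjusted for composition between libraries. Of the 24 pairs of replicate libraries, none agreed within sampling noise (χ2 per degree of freedom 2.12 to 33.2), so all were counted as separate samples. Of 4 genes chosen to mark the pheromone arrest, FUS1, FIG1 and AGA1 fell in M in both library types (AGA1 from 3395 to 7160 CPM in G1 libraries to 54.4 to 370.1 CPM in M libraries), while SIC1, an inhibitor of the cell cycle kinase, was at 16.9 to 36.1 CPM in G1 and 14.3 to 44.9 CPM in M and was not called. Markers of α cells, the other mating type, summed to 0 to 7.21 CPM.

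In total RNA, messages of all 8 genes except ATP8 were counted, and together they made up 2277 to 3251 counts per library. In RNA from whole cultures, fewer mitochondrial genomes or cells and less RNA from each cannot be told apart. In polyA RNA the 8 genes summed to 14.2 to 91.3 counts per library, although those libraries held many times more non-ribosomal counts. The plot of levels by library shows this gap for each gene.

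**Figure D1:**
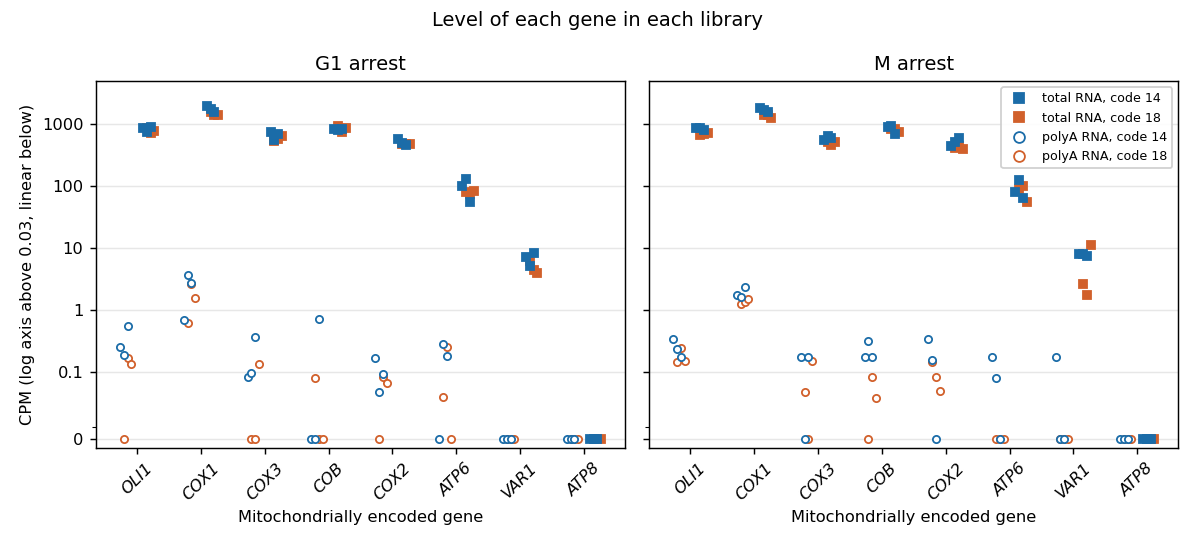
Level of each mitochondrially encoded gene (x axis) in each library, in CPM on an axis that is logarithmic above 0.03 and linear below, for G1 (left) and M (right); filled squares are total RNA, open circles polyA RNA, and colour gives the code. For the 7 genes with counts, every total RNA library lies above every polyA library, and ATP8 lies at 0 in all 24.

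Among the ATP synthase genes, OLI1 encodes subunit c, which forms the rotating ring of the membrane part. Its total RNA level ranged from 736 to 892 CPM in G1 (median 822, mean 817 ± 70.4, SD, n = 6) and from 669 to 882 CPM in M (median 765, mean 773 ± 87.7, SD, n = 6), on 401 to 590 counts per library. Divided by coding length, OLI1 stood at 3537 CPM per kb in G1, and only 15 of 5994 nuclear coding features had a higher level per kb there. ATP6 encodes subunit a, which forms the proton path beside that ring. It ranged from 54.7 to 128 CPM in G1 (mean 87.2 ± 25.0, SD, n = 6) and from 55.3 to 127 CPM in M (mean 86.4 ± 25.9, SD, n = 6), and rested on 33 to 79 counts per library.

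ATP8 encodes a small subunit that sits beside Atp6. It was listed at 0 in all 24 libraries. In the 6 G1 total RNA libraries together, 0 counts allow a level of up to 0.779 CPM, or 5.30 CPM per kb. This limit takes 3 counts over the group and covers counting error only. With counts divided by full coding length, OLI1 was 665-fold above it. That division took no account of how few positions a 76-base read has within a short sequence, so 665 is not a strict lower bound. Its coding sequence of 147 bases is less than a pair of the 76-base reads laid end to end. Of the 60 nuclear coding features of that length or shorter, 28 had a count in some total RNA library and 43 in some polyA library.

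Cox1, Cox2 and Cox3 form the catalytic core of cytochrome c oxidase, complex IV. COX1 had the highest level of the 8 before division by length, 1419.5 to 1965 CPM in G1 (median 1565, mean 1614 ± 209, SD, n = 6) and 1250.3 to 1809 CPM in M (median 1521, mean 1540 ± 207, SD, n = 6). COX2 ranged from 454 to 573 CPM in G1 and from 395 to 594 CPM in M. COX3 ranged from 539 to 748 CPM in G1 and from 463 to 653 CPM in M. The G1 and M ranges overlapped for each of these genes. COB, whose product cytochrome b is the electron-carrying membrane subunit of complex III, ranged from 752 to 930.0 CPM in G1 and from 701 to 921 CPM in M. VAR1 encodes a protein of the small subunit of the mitochondrial ribosome. It had only 3 to 5 counts per G1 library and 1 to 7 per M library, or 3.95 to 8.29 CPM and 1.73 to 11.4 CPM.

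Per kb of coding sequence in G1 total RNA, the order was OLI1 (3537 CPM per kb), COX1 (1006), COX3 (773), COB (724), COX2 (655), ATP6 (112), VAR1 (4.87) and ATP8 (0). OLI1 stood above COX1, COX2 above ATP6, and ATP6 above VAR1 with separate ranges in both arrests. COX1 was above COX3 in 6 of 6 libraries of each arrest, although their ranges over libraries overlapped. COX3, COB and COX2 could not be ordered beyond their spread: COX3 was above COB in 4 of 6 G1 libraries and 2 of 6 M libraries, and COB above COX2 in 5 of 6 of each.

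This order followed GC content. Over the 8 genes, Spearman's rho between the GC content of the coding sequence and CPM per kb in G1 total RNA was 0.95, and it was 0.94 over the 6 genes other than COX1 and COB, whose counts are shared with intron reading frames. The correlation is over genes, which share libraries, genome and amplification and are not replicates, so it is a description without a test. Whether base composition affected sequencing or mapping was not tested. The 6 genes with at least 33 counts in every total RNA library had a GC content of 23.7 to 33.3%, and the others, ATP8 and VAR1, had 19.0% and 10.4%. For scale, the lowest GC content of any nuclear coding sequence was 26.0%.

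**Figure D2:**
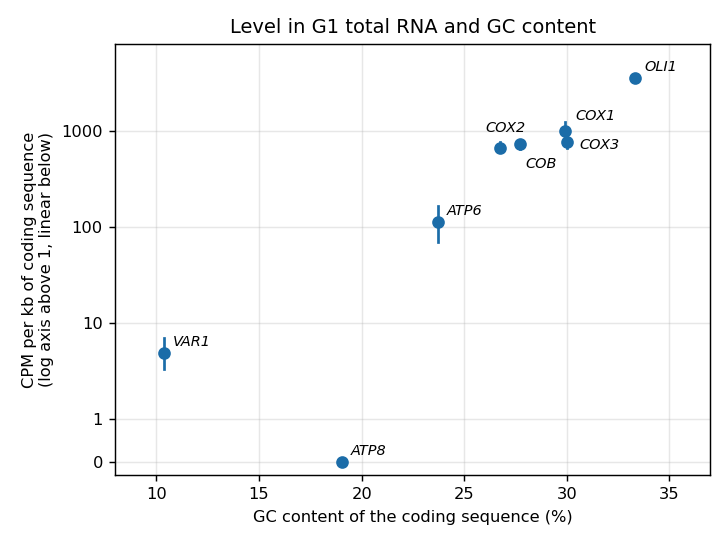
Level of each gene in G1 total RNA, as CPM per kb of coding sequence (y axis, logarithmic above 1 and linear below), against the GC content of its coding sequence in percent (x axis). Points are means of 6 libraries and bars run from the lowest to the highest library; levels go from 4.87 CPM per kb for VAR1 at 10.4% GC to 3537 for OLI1 at 33.3%, with ATP8 at 0.

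PolyA selection was compared with total RNA to see how much of these messages it retained. COX1 went from 1419.5 to 1965 CPM in the 6 G1 total libraries to 0.605 to 3.72 CPM (median 2.08) in the 6 G1 polyA libraries, where it had 8.16 to 78.3 counts. In M it went from 1250.3 to 1809 CPM to 1.25 to 2.35 CPM (median 1.55). Every total library thus lay far above every polyA library, as it did for each of the 7 genes with counts (7.67% of all features tested were lower in polyA RNA without overlap in G1, and 8.77% in M). With counts summed over 6 libraries of each type, COX1 was 826-fold lower in polyA RNA in G1 (95% interval 714 to 961) and 973-fold lower in M (823 to 1159). These intervals, from exact binomial limits, cover counting error only, and reads without molecular identifiers are not independent molecules.

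COB was lower by more. It had 10 counts over all 6 G1 polyA libraries, 8 of them in a single library, against 3229 counts in the total libraries, a summed level 8071-fold lower (4383 to 16847). In M it was 7372-fold lower (4003 to 15390). For COX2, the levels were 7907-fold lower in G1 (3626 to 21572, 6 polyA counts) and 3801-fold lower in M (2119 to 7628, 11 polyA counts). COX3 was 6668-fold lower in G1 (3507 to 14600.4) and 6151-fold lower in M (3116 to 14267), on 9 and 8 polyA counts. Each of these genes thus left between 0 and 8 counts in any polyA library.

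OLI1 left 0 to 6 counts per polyA library and was 4606-fold lower in G1 (2872 to 7918) and 3799.7-fold lower in M (2400 to 6421). ATP6 was 694-fold lower in G1 (392 to 1356, 12 polyA counts) and 2590-fold lower in M, where 3 polyA counts give an interval of 878 to 12626. VAR1 had no count in the 6 G1 polyA libraries, so its level was at least 183-fold lower there with the 0 set to 3 counts over the group, against 22 in total RNA, and the exact binomial lower limit, which also covers the error of the 22 counts, was 137-fold. In M it had 2 polyA counts, both in code 14 replicate 1, against 23 in total RNA, a ratio of 284 (70.1 to 2482). For VAR1 the counts were too few to place it among the others. For ATP8, with 0 counts in both library types, no comparison could be made.

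Other RNAs that lack a poly(A) tail give a scale. The mitochondrial 15S rRNA was 3747-fold lower in polyA RNA in G1 and 3779-fold lower in M, and the 21S rRNA 2482-fold and 2476-fold. Cytoplasmic rRNA, summed over its 14 features, was 669-fold lower in G1 and 472-fold lower in M. The fold of COX1 lay between those of cytoplasmic rRNA and the 21S rRNA in both arrests. So did that of COX1 summed with its 6 intron reading frames, 5 of which share bases with its exons, 1236-fold in G1 (1141 to 1341) and 1343-fold in M (1232 to 1467). Those of COB, COX2, COX3 and OLI1 were above that of the 15S rRNA, although the intervals of OLI1, COX2 and COX3 included it in both arrests. Summed with its intron reading frames, COB was 4674-fold lower in G1 (3083 to 7467) and 5499-fold lower in M (3430 to 9449). These intervals also included the fold of the 15S rRNA.

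**Figure D3:**
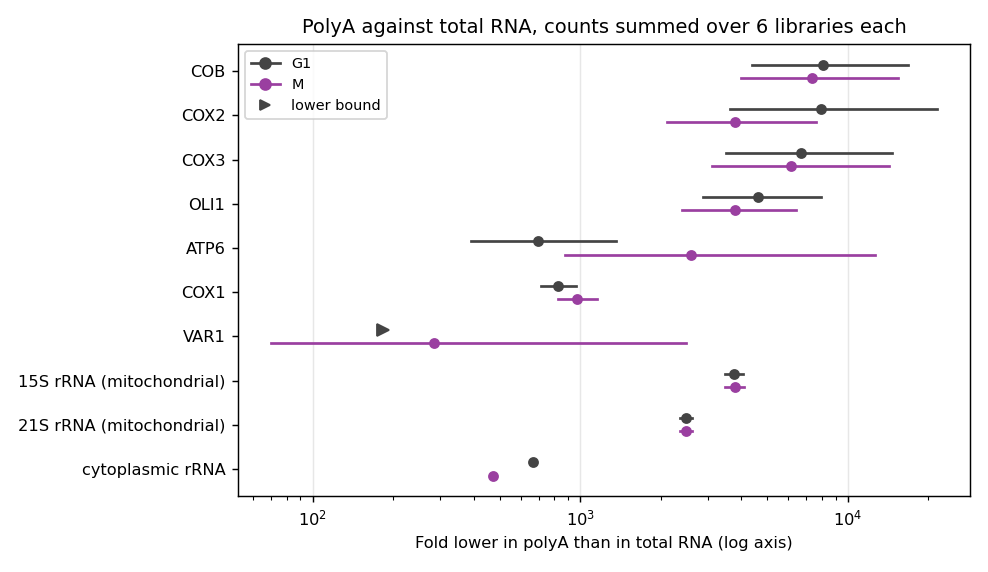
Fold by which the summed level over 6 libraries was lower in polyA than in total RNA (x axis, log scale), for each mitochondrially encoded gene with counts and for rRNAs, in G1 (grey) and M (purple). Points are ratios of summed counts, bars are 95% counting intervals, and the arrowhead is a lower bound; COX1 lies at 826-fold and 973-fold, and COB at 8071-fold and 7372-fold.

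In the edgeR fit of all 24 libraries, 7 of the 8 genes could be tested (ATP8 had no counts), and all 7 were called lower in polyA RNA in both arrests at a Benjamini-Hochberg adjusted p under 0.05. Of all 5839 features tested, 15.8% were called lower in G1 and 14.3% in M. COX1 alone also passed the filter on low counts within the polyA libraries. The other 6 passed through their total RNA libraries, where they are high, so they had to differ, and the count of 7 gives no support of its own. The edgeR log2 difference (polyA minus total) of COX1 was −9.72 ± 0.22 (SE, adjusted p = 3.71e-21) in G1 and −9.89 ± 0.22 (adjusted p = 3.62e-21) in M. For COB, it was −12.98 in G1 and −12.84 in M, and for OLI1, −12.23 and −11.76. No standard errors are given for COB and OLI1, since those of the fit were narrower than the counting intervals of their summed ratios. The G1 value of COB rests on few polyA counts: it was −14.90 without the culture code 14 replicate 3, which held 8 of its 10 counts, and −13.79 without code 18 replicate 1, fits in which 1 code had no polyA count left and the value depends on the prior count. With its intron reading frames added it was −12.10. The median of all features was 0.06 in G1 and 0.05 in M, and their 1st percentile was −9.60 and −9.61. Counted from the lowest difference with all libraries, COB was 10th, COX2 12th, COX3 13th and OLI1 15th of 5839 in G1, whereas COX1 was 57th.

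COX1 took a larger share of the 8 genes' counts in polyA than in total RNA, a difference that was noticed in the values before it was tested. Its share was 57.6 to 85.8% in the 6 G1 polyA libraries and 33.2 to 38.9% in the 6 G1 total libraries. In M it was 56.1 to 81.9% and 33.8 to 38.7%. The ranges did not overlap in either arrest. Libraries of the same code and number were taken as a culture, which no source used here states. Within cultures so defined, the mean difference was 39.4 percentage points in G1 and 37.3 in M, higher in polyA RNA in 6 of 6 cultures each time (exact sign-flip test, two-sided, p = 0.03125, the smallest that 6 cultures allow). With the intron reading frames added to COX1 and to COB, the share was 79.2 to 96.2% in polyA and 69.2 to 75.3% in total RNA in G1, a mean difference of 17.8 points (6 of 6 cultures, exact p = 0.03125), and 16.8 points in M (6 of 6, exact p = 0.03125). These p-values were computed on differences already seen and give no support of their own. The G1 and M libraries come from the same cultures, so the arrests are not independent. The polyA shares rest on 14.2 to 91.3 counts per library. How the authors' software divided reads among overlapping features of the 2 library types was not tested. Single cytoplasmic rRNA features differed in opposite directions between the library types in G1, in counts summed over 6 libraries of each. RDN37-1 had 29585300 counts in total RNA and 67 in polyA RNA, whereas RDN58-1 had 0 and 1295. RDN18-1 and RDN25-1 were 293-fold and 280-fold lower in polyA RNA. Whether the division of reads between COX1 and its intron reading frames differed by library type was not tested either.

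**Figure D4:**
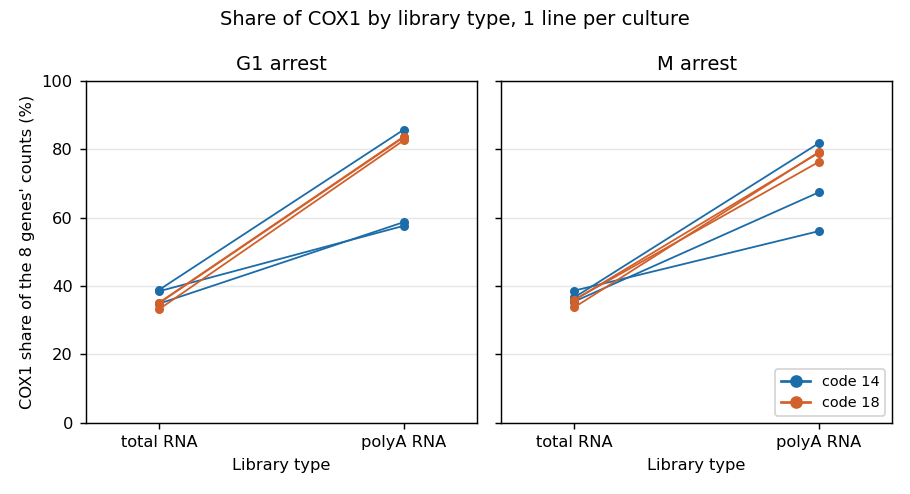
Share of COX1 in the summed counts of the 8 mitochondrially encoded genes, in percent (y axis), for G1 (left) and M (right). Lines join the total and polyA library of the same code and number, taken as a culture, and are coloured by code. All 12 lines rise, from 33.2 to 38.9% in total RNA to 56.1 to 85.8% in polyA RNA.

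The intron reading frames were themselves lower in polyA RNA. AI1 and AI2, which encode the maturases and reverse transcriptases of the first COX1 introns and run on from the upstream COX1 exons, were 2014-fold and 2668-fold lower in G1 and 1552-fold and 1944-fold lower in M. Of the 20 mitochondrial reading frames other than the 8 genes, 13 were tested in the 24-library fit and all 13 were called lower in both arrests. Of all features, 15.8% were called lower in G1 and 14.3% in M. Only 2 of the 20 also passed the filter within the polyA libraries. The others passed through total RNA, so the count of 13 gives no support of its own. The size of the difference varied widely, with edgeR log2 differences from −11.48 to −6.27 in G1. Of the later COX1 introns, AI4, AI5_ALPHA and AI5_BETA differed by less than AI1 and AI2. In G1, AI4 went from 342 CPM in total to 0.921 CPM in polyA RNA (means of 6 libraries, log2 difference −8.52 ± 0.23). AI5_ALPHA went from 43.3 to 0.355 CPM (−7.17 ± 0.37) and AI5_BETA from 34.4 to 0.470 CPM (−6.27 ± 0.36). AI3 went from 140 to 0.0990 CPM in G1, on 10.3 polyA counts. Of the 88.9 G1 polyA counts of AI4, 38.0 lay in 1 library, and in M AI4 went from 341 to 0.366 CPM. In total RNA, AI1 had a higher count than COX1 itself, 3869 ± 485 against 1614 ± 209 CPM (SD, n = 6) in G1, before division by length. Summed with its 6 intron reading frames, the COX1 region stood at 7093 to 9268 CPM in G1 and 6608 to 8947 CPM in M.

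The second comparison asked whether the messages differed between cells arrested in G1 and cells that had passed S phase into the mitotic arrest. In total RNA, the 6 genes with enough counts to test differed by little. COX1 was 0.07 ± 0.06 lower in M on the log2 scale (SE; log2 difference −0.07), OLI1 differed by −0.09 ± 0.06, COX2 by −0.08 ± 0.08, COB by −0.02 ± 0.08 and ATP6 by 0.00 ± 0.20. COX3 had the largest difference, −0.18 ± 0.08, from 539 to 748 CPM (median 615) in G1 to 463 to 653 CPM (median 540.3) in M, ranges that overlap, as they did for all 6 (8.63% of features did not overlap). None of the 6 was called by edgeR (adjusted p for COX3 = 0.106), whereas 23.8% of the 4960 features tested were called. At an unadjusted p under 0.05, edgeR gave 1 of the 6 genes, COX3 (34.3% of all features), and DESeq2 called 0 (1 at an unadjusted p under 0.05). The 95% intervals of the 5 genes other than ATP6 lay between −0.34 and 0.13, so larger shifts lay outside them, and that of ATP6 was wider (−0.39 to 0.39). Within code 14 alone the 6 differences ran from −0.12 to 0.05 and within code 18 from −0.25 to 0.03, with none called by edgeR or DESeq2 (16.1% and 14.2% of features called by edgeR; 0 and 1 of the 6 at an unadjusted p under 0.05). With the culture code 14 replicate 2 left out, COX3 was called at −0.27 ± 0.07 (edgeR adjusted p = 0.0195).

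In polyA RNA, only COX1 could be tested. It had 8.16 to 78.3 counts in G1 and 16.2 to 29.7 counts in M, or 0.605 to 3.72 and 1.25 to 2.35 CPM. The M range lay within the G1 range, and the edgeR log2 difference of −0.24 ± 0.39 was not called (adjusted p = 0.645, 51% of 5832 features called, unadjusted p = 0.556, and 0 by DESeq2). For COX1, the difference between the arrests did not depend detectably on library type, with an edgeR interval of that interaction from −0.80 to 0.46 on the log2 scale. Of the 7 genes tested, edgeR called 0 for arrest by library (0.188% of all features called, 0 of the 7 at an unadjusted p under 0.05). DESeq2 called 0 (1 of 7 at an unadjusted p under 0.05). The genes other than COX1 passed the filter through total RNA and had too few polyA counts for this test to decide. Standard errors were 0.44 for OLI1 and 1.03 for COB, and the fit gave no usable ones for ATP6 and VAR1.

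The third comparison set the codes against each other, within each arrest. In G1 total RNA, COX1 was at 1965, 1745 and 1565 CPM in code 14 and at 1564, 1425 and 1419.5 CPM in code 18. These do not overlap, but the nearest libraries were less than 1 CPM apart. The edgeR log2 difference (code 18 minus code 14) was −0.27 ± 0.09 (unadjusted p = 0.00947, adjusted p = 0.0888), and the differences of OLI1 (−0.09 ± 0.09), COX2 (−0.08 ± 0.11), COX3 (−0.17 ± 0.11), ATP6 (−0.25 ± 0.28) and COB (0.03 ± 0.11) were smaller or less precise. None of the 6 was called, against 8.61% of all features. DESeq2 called 0 as well, and by either tool 1 of the 6 had an unadjusted p under 0.05 (19.3% of all features by edgeR). COX1 was the only one of the 6 whose codes did not overlap, and 11.5% of features tested were lower in code 18 without overlap. The non-ribosomal counts per library were themselves separated by code in G1, 642159 to 725611 in code 14 and 789078 to 929948 in code 18, and their part in the difference was not tested.

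In M total RNA the 6 genes all had lower fitted levels in code 18, although none was called. COX1 was at 1809, 1714 and 1604 CPM in code 14 and at 1423, 1437 and 1250.3 CPM in code 18 (log2 difference −0.33 ± 0.09, edgeR adjusted p = 0.0539). OLI1 was at 860.2, 882 and 798 CPM against 669, 696 and 733 CPM (−0.29 ± 0.09, edgeR adjusted p = 0.0943). For COX2, the values were 451, 523 and 594 CPM against 420.1, 448 and 395 CPM (−0.33 ± 0.11, edgeR adjusted p = 0.114). The code 14 values of each of these 3 genes were all above the code 18 values, closely so for COX2, where the nearest libraries stood at 451 and 448 CPM. COX3 was at 563, 653 and 605 CPM against 517, 463 and 515 CPM (−0.30 ± 0.11, edgeR adjusted p = 0.179), again without overlap. COB (−0.07 ± 0.11) and ATP6 (−0.18 ± 0.29) overlapped between codes. Of all features, 3.73% were called, and DESeq2 called 0 of the 6. At an unadjusted p under 0.05 there were 4 of the 6 by either tool, COX1, OLI1, COX2 and COX3 by edgeR (16.1% of all features). These 4 genes were also the ones without overlap, where 9.6% of all features tested were lower in code 18 without overlap.

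The calls on the codes lay close to the threshold. With the culture code 14 replicate 3 left out, COX1 was called in G1 (−0.36 ± 0.09, edgeR adjusted p = 0.0161) and in M (−0.37 ± 0.09, edgeR adjusted p = 0.0280), and with code 14 replicate 1 left out, COX2 was called in M (−0.42 ± 0.10, edgeR adjusted p = 0.0284). Without a filter on low counts, COX1 was called in M (edgeR adjusted p = 0.0355). The study repeated the experiment 3 times with both strains, but no source used here states that the number in a column name marks the repeat. With that number as a block, COX1 was called in G1 (−0.26 ± 0.07, edgeR adjusted p = 0.0246) and in M (−0.33 ± 0.07, edgeR adjusted p = 0.0102). The difference between codes did not itself differ detectably between arrests: edgeR called 0 of 6 genes for code by arrest, against 2.62% of features, with 0 of 6 at an unadjusted p under 0.05 and 0 by DESeq2. The largest such interaction was that of COX2, −0.25 ± 0.15 (edgeR adjusted p = 0.505).

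**Figure D5:**
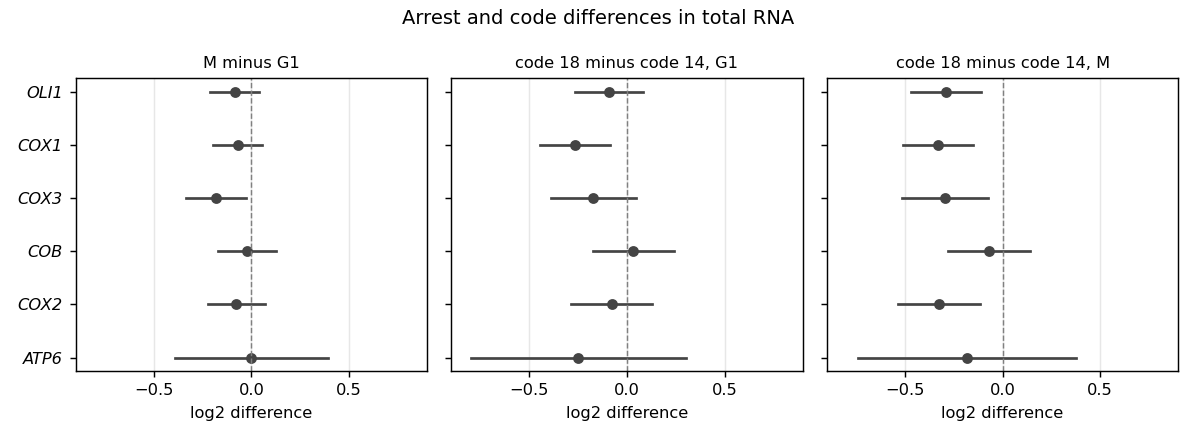
Fitted log2 differences in total RNA (x axes) of the 6 mitochondrially encoded genes that could be tested, for M minus G1 (left), code 18 minus code 14 in G1 (middle) and in M (right). Points are edgeR estimates and bars are 1.96 standard errors either side; COX1 lies at −0.07, −0.27 and −0.33, and none of the points was called at an adjusted p under 0.05.

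The mitochondrial rRNAs, transcribed from the same chromosome, did not separate the codes in this way. The 15S rRNA was 0.08 lower in code 18 in G1 on the log2 scale (log2 difference −0.08, exact permutation test, two-sided, p = 0.4) and differed by −0.04 in M (exact p = 0.7). The 21S rRNA differed by −0.05 in G1 (exact p = 0.4) and by 0.00 in M (exact p = 1), where 3 libraries against 3 cannot give less than 0.1. Whether the messages differed between codes more than these rRNAs was not tested. With intron reading frames added, the COX1 region differed by −0.18 in G1 (exact p = 0.4, codes overlapping) and by −0.18 in M (exact p = 0.1, the smallest possible).

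In polyA RNA, COX1 was at 0.682, 3.72 and 2.71 CPM in code 14 and at 0.605, 2.58 and 1.58 CPM in code 18 in G1, which overlap (log2 difference −0.71 ± 0.55, edgeR adjusted p = 0.413, against 15.9% of features called). In M it was at 1.76, 1.63 and 2.35 CPM in code 14 and at 1.25, 1.32 and 1.48 CPM in code 18. These did not overlap (15.4% of features tested were lower in code 18 without overlap), and the edgeR log2 difference was −0.51 ± 0.57 (adjusted p = 0.631, with 12% of features called). Neither had an unadjusted p under 0.05 by edgeR or DESeq2, and DESeq2 called neither. For code by arrest in polyA RNA the edgeR difference was 0.20 ± 0.79 (adjusted p = 0.913, with 3.72% of features called).

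The nuclear genes for the same 3 complexes gave a reference for the levels. In G1 total RNA, the 14 nuclear ATP synthase subunits ranged from 87.4 (ATP18) to 836 CPM per kb (ATP2, the catalytic β subunit), with a median of 188, against 3537 for OLI1 and 112 for ATP6. The 10 nuclear complex IV subunits ranged from 6.22 (COX26) to 211 CPM per kb (COX13), with a median of 121, against 1006 for COX1, 655 for COX2 and 773 for COX3. The 9 nuclear complex III subunits ranged from 113 (QCR10) to 357 CPM per kb (QCR6), with a median of 173, against 724 for COB. COX1, COX2, COX3 and COB thus stood above every nuclear partner listed in their own complex, and ATP6 below the median of its own. In polyA RNA this was inverted, with medians of 205, 120.1 and 177 CPM per kb for these lists and a mean of at most 1.23 CPM per kb for any of the 8 mitochondrially encoded genes in G1.

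Between library types, the nuclear subunits differed little. The median log2 difference (polyA minus total) in G1 was 0.02 for ATP synthase, −0.03 for complex IV and 0.04 for complex III, near the 0.06 of all features. Of the 33 genes, 3 were called higher and 3 lower in G1, where 17.6% of all features were called higher and 15.8% lower, with QCR6 (0.96 ± 0.11) and ATP1 (−0.50 ± 0.07), the α subunit of ATP synthase, the largest in each direction.

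Between the arrests, few of the nuclear subunits were called. In polyA RNA, 1 of the 14 ATP synthase genes rose in M and 4 fell (ATP15 by 0.46 ± 0.10, TIM11 by 0.38 ± 0.09 and ATP20 by 0.38 ± 0.09 on the log2 scale), where 25.7% of all features were called higher and 25.4% lower. In complex III, CYT1 (0.25 ± 0.08) and COR1 (0.17 ± 0.05) rose and QCR10 (log2 difference −0.80 ± 0.10) fell. In complex IV, COX26 rose (2.72 ± 0.40) and COX5B, the hypoxic form of subunit 5, fell (log2 difference −0.32 ± 0.10). In total RNA, where 12.1% of features were called higher and 11.7% lower, ATP15 (−0.70 ± 0.20), ATP20 (−0.49 ± 0.18) and QCR10 (−0.74 ± 0.23) fell and none of the list rose. Medians of the lists in total RNA were −0.11, 0.06 and −0.18 for ATP synthase, complex III and complex IV, beside −0.07 for the 6 mitochondrially encoded genes tested and 0.00 for all features.

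Of 29 nuclear genes for mitochondrial gene expression, 20 rose in M and 3 fell in polyA RNA (median log2 difference 0.34, all features 0.01), where 25.7% of features were called higher and 25.4% lower. MHR1, known for its part in mitochondrial DNA recombination, rose by 0.89 ± 0.06 (edgeR adjusted p = 9.03e-08), SUV3, the helicase of the mitochondrial RNA degradosome, by 0.66 ± 0.05, and CBP6, needed for cytochrome b synthesis, by 0.60 ± 0.08. ABF2, which packages mitochondrial DNA, fell (log2 difference −0.73 ± 0.05, edgeR adjusted p = 1.89e-07). In total RNA, made from the same samples and so no independent measure, 6 of 28 rose and 2 fell (median 0.28, all features 0.00). There, 12.1% of all features were called higher and 11.7% lower. Among the genes called were MHR1 (1.14 ± 0.24), SUV3 (0.61 ± 0.16) and NAM2, the mitochondrial leucyl-tRNA synthetase (0.54 ± 0.12), which rose. ATP22, a translation factor for ATP6, fell (log2 difference −0.64 ± 0.14). ATP6 itself differed by 0.00 ± 0.20 between the arrests in total RNA. The genes of this list act in DNA maintenance, RNA turnover, RNA processing and translation, and those named as rising or falling do not share 1 of these roles.

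Between the codes, nuclear respiratory genes were called in G1 and not in M. In G1 polyA RNA, where 8.33% of features were called lower in code 18, 3 of 9 complex III genes were lower in code 18 (QCR7 by −0.46 ± 0.10, QCR2 by −0.39 ± 0.09 and COR1 by −0.27 ± 0.08 on the log2 scale) as were 2 of 14 ATP synthase genes (ATP14 by −0.50 ± 0.11 and ATP5 by −0.46 ± 0.08), and none was higher. List medians were −0.30 for complex III, −0.24 for complex IV and −0.25 for ATP synthase, beside 0.01 for all features. In G1 total RNA, where 4.07% of features were called lower, 2 of 9 complex III genes were lower in code 18 (QCR10 by −0.98 ± 0.29 and QCR2 by −0.43 ± 0.09 on the log2 scale), and none of the complex IV or ATP synthase genes was called. The list medians there were −0.38, 0.01 and −0.15, beside −0.01 for all features, and all 9 complex III genes had fitted differences below 0. In M, 12% of all features were called in polyA RNA and 3.73% in total RNA, in either direction. None of these genes was called there in either library type, and the medians were −0.05, −0.13 and −0.03 in polyA and −0.02, −0.10 and 0.05 in total RNA. Gene by gene, the difference between codes did not itself differ detectably between arrests. For code by arrest, edgeR called 0 of these nuclear subunit genes in polyA RNA (3.72% of features) and 0 in total RNA (2.62%). Whether the list medians differed between arrests was not tested.

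The features outside the mitochondrial chromosome whose log2 CPM most resembled the mean of the 8 genes over the 12 total RNA libraries were ZRT1 (r = 0.91), EXG1 (0.88), SSA4 (0.87), VRL1 (0.85) and the small nucleolar RNA snR51 (0.85). ZRT1 encodes a zinc transporter of the plasma membrane and SSA4 a stress-induced chaperone of the Hsp70 family. In polyA RNA they were SPE4 (0.83), SEN15 (0.81), RPR1 (0.81), YOR302W (0.80) and CIA1 (0.79). These are the highest of 4942 and of 5829 correlations over 12 libraries that share arrests and codes, they are given without a test, and the 2 sets have no gene in common.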

How the data were processed

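RNA from G1 and M arrests was sequenced as strand-specific single-end reads of 76 bases. The authors trimmed reads with cutadapt 1.9.1, aligned them with STAR 2.5.2a and deposited RSEM 1.3.0 expected counts per feature of the R64 annotation. RSEM divides reads among overlapping features, and expected counts were rounded here. The 24 TPM columns of the same libraries were not used. Cytoplasmic and mitochondrial rRNA rows and spike-ins were left out of library sizes and tests.

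Tests used edgeR 4.0.16 in R 4.3.3 (limma 3.58.1; TMM scaling, filterByExpr with a minimum count of 10, quasi-likelihood F test, Benjamini-Hochberg over all features, called at an adjusted p under 0.05). PolyA against total RNA was fitted on all 24 libraries and arrests and codes on the 12 libraries of each type, and the fits were tested on simulated counts. DESeq2 1.42.0, other scalings, no filter, summed overlapping features, a replicate block and each culture left out were the alternatives. Intervals on ratios are 95%, and a count of 0 was set to 3 counts.

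Replicates are biological by the labels. Columns were grouped by arrest and library type, and codes and numbers come from the column names. The codes were not matched to strains, and the level of YCG1 was not used to do so. By the study's methods, the G1 and M samples of a repeat come from the same culture. Libraries of 1 code and number were taken as 1 culture, which no source used here states. The correlation of deviations from group means between their G1 and M libraries was −0.26 to 0.59 in polyA and 0.02 to 0.10 in total RNA.

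The 8 genes are always named. Other mitochondrial features are named where they overlap one of them or lie outside their range, up to 4 called genes of largest change per nuclear list, and the 5 features most like the 8 genes. All 84 listed genes were found in the table. The genes and lists were chosen with earlier results of these data known. The share of COX1 was examined after its values were seen.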

Additional observations from a re-analysis of the deposited data

Results flagged for a closer look

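A single library stood apart from the other 5 of its group in 4 of 27 groups of 6 examined. A group was each gene in each arrest and library type where its values differed. The rule was a gap to the nearest neighbour larger than Dixon's 95% critical share of the range. Chance gives such a gap in about 1 of 20 groups of normally distributed values from 1 population. The groups here hold both codes, and the polyA groups rest on few counts, many of them 0, so that rate does not apply to them. COB was at 0.726 CPM (8 counts) in the G1 polyA library of code 14 replicate 3, where the others lay between 0 and 0.0795 CPM. In the same library COX3 was at 0.363 CPM (4 counts), with the others between 0 and 0.132 CPM. VAR1 was at 0.172 CPM (2 counts) in the M polyA library of code 14 replicate 1 and at 0 in the others. COX2 was at 573 CPM (318 counts) in the G1 total library of code 14 replicate 1, and the others lay between 454 and 494 CPM.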

How the results depend on the processing

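The 7 genes called lower in polyA than in total RNA numbered 7 in both arrests under each alternative except with rRNA rows kept, where 6 could be tested and 6 were called, and none of the differences reversed. Of the 6 genes tested in total RNA, the number called between M and G1 was 0 to 1 over the cultures left out in turn, 1 without code 14 replicate 2. Between the codes, the number called in G1 was 0 to 1 over the cultures left out, 1 without code 14 replicate 3, and in M 0 to 1, 1 without code 14 replicate 1 or replicate 3. It was 1 in M with no filter on low counts. Between codes, libraries share a replicate number, and the correlation of same-numbered libraries ran from −0.06 to 0.14 in total RNA and from 0.03 to 0.35 in polyA RNA. With that number as a block, 1 gene was called in G1 and 1 in M, COX1 both times (−0.26 ± 0.07, edgeR adjusted p = 0.0246, and −0.33 ± 0.07, edgeR adjusted p = 0.0102). With the culture as a block for the arrests and library types, no call changed. Among values of single genes, 623 stayed on their side of the threshold and 7 passed it. Total RNA libraries held 564083 to 929948 non-ribosomal counts, and polyA values of the 7 genes other than COX1 rest on 0 to 8 counts per library. The cause of these changes in calls was not tested.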

Other observations

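Of the 11 mitochondrial reading frames other than the 8 genes that could be tested between arrests in total RNA, 1 was called, against 23.8% of all features. SCEI (Q0160), the endonuclease gene in the intron of the 21S rRNA, was at 206, 194 and 174 CPM in code 14 and 249, 210.4 and 212 CPM in code 18 in G1. In M it was at 264, 296 and 281 CPM in code 14 and 316, 305 and 263 CPM in code 18. All M libraries lay above all G1 libraries (8.63% of all features did not overlap, in either direction), and the log2 difference was 0.48 ± 0.08 (edgeR adjusted p = 0.000214). This was the opposite sign to COX3, the gene of the 8 with the largest difference. Of the 24 mitochondrial tRNAs listed, 22 had no count in any library and none had more than 2 counts in a library.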
